A study of Triticum aestivum with 12 samples.

Results

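Cysteine-type peptidases, the protein-cutting enzymes that use a cysteine in their active site, were examined in immature grain of bread wheat (Triticum aestivum). The members were the protein-coding genes whose gene ontology entry holds cysteine-type peptidase activity or cysteine-type endopeptidase activity, and 38 of 12357 protein-coding genes in the table met this rule, all 38 through the first term and 0 through the second. The table covers coding genes of chromosomes 1A, 1B and 1D, and cysteine peptidases encoded elsewhere in the genome were not analysed here. The members lay on 1A (9 genes), 1B (20) and 1D (9). None of the 38 carries a functional description. The table gives 8 of them the KEGG entry of cathepsin L, a papain-like enzyme, and 3 others are assigned to both the vacuole and the endoplasmic reticulum. No sequence of these genes was in the sources used here, so enzyme families are named only as far as those entries go.

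RNA was sequenced from whole immature grain in 12 libraries, 3 for each of 4 groups. They were the mutant line HPm512, labelled with a high antioxidant activity, and the wild-type cultivar Zhoumai22, each at 20 and at 30 days after anthesis. The labels do not say how HPm512 was made or whether Zhoumai22 is its parent. They do not tie replicates to separate plants either, so each p-value reflects variation among libraries that could be technical alone.

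In cereal grain, cysteine peptidases are known for work on stored protein. Vacuolar processing enzymes (legumains) trim storage protein precursors in the vacuole during filling, and papain-like enzymes break down prolamins such as gliadins, chiefly once the grain germinates. The starchy endosperm dies as the grain matures, and vacuolar cysteine peptidases and metacaspases are among the enzymes linked to cell death in plants. Cystatins, small inhibitor proteins, block papain-like enzymes. The table's entries assigned 0 members to the legumains and 0 to the metacaspases, so the labels of these genes do not tie any expressed member to storage protein turnover or to cell death.

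Library totals, recovered from counts and FPKM (reads per kilobase of transcript, scaled to library size), ran from 59.3 M to 73.6 M reads. Small counts of coding genes piled up at multiples of 4: a count of 4 was found 2802 times, against 461 for a count of 3 and 362 for a count of 5. A deposited count is therefore not always an independent read, and limits drawn from counts cover counting error only. Mutant replicate 3 at 20 days had the lowest library total, and in the earlier results of these data it stood apart from its group, so the peptidase values it decides are also given without it. Markers of endosperm and embryo were found in all groups: 27 or 28 of 49 starchy endosperm markers had reads in each group, and all 8 embryo markers did. Of 23 green pericarp markers 12 or 13 had reads at 20 days, but at 30 days 7 had reads in the mutant and 4 in wild type. Descriptions gave 0 aleurone markers.

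Most of the family had no reads in grain, which is called silent here. Of the 38 members 23 had a count of 0 in each of the 12 libraries, which is 60.5% of them, and the same was true of 27% of all protein-coding genes. A count of 0 allows up to 3 counts per library, which is 0.0506 RPM in the smallest library if a count is a read, and 0.202 RPM if a read gives 4 counts. All 8 genes with the cathepsin L entry were among the silent ones: TraesCS1A02G031100, TraesCS1A02G383100, TraesCS1B02G038900, TraesCS1B02G238800, TraesCS1B02G409200, TraesCS1B02G476300, TraesCS1D02G015000 and TraesCS1D02G032500. By chromosome, 14 of 20 members on 1B, 6 of 9 on 1A and 3 of 9 on 1D were silent. On 1B the silent members ran from TraesCS1B02G005000 (start 3170728) to TraesCS1B02G476300 (start 685168594). The only 1B member that reached the level for testing, TraesCS1B02G338500, starts at 566601144. Whether a gene without reads is unexpressed or missing from these lines was not tested. Over all protein-coding genes the silent share was 33.6% on 1B, 24% on 1A and 21.6% on 1D. Only 6 members reached 1 FPKM in at least 3 libraries, the level set for testing, which is 15.8% of the family against 40.8% of all protein-coding genes.

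For other peptidase classes on the same chromosomes, no reads were found for 6 of 57 serine endopeptidases, 7 of 25 serine carboxypeptidases, 3 of 17 aspartic endopeptidases and 0 of 12 metalloendopeptidases. The 8 threonine endopeptidases, which are proteasome core subunits, and the 5 inhibitors of cysteine endopeptidases were all expressed at the level set for testing. Deubiquitinases, which remove ubiquitin from proteins, have a term of their own in the table, and 1 of 14 was silent. None of the 38 members carries that term, so the silent share of the family holds for genes with the cysteine-type term alone. These shares are descriptions, and no test of the difference between classes was made.

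**Figure D1:**
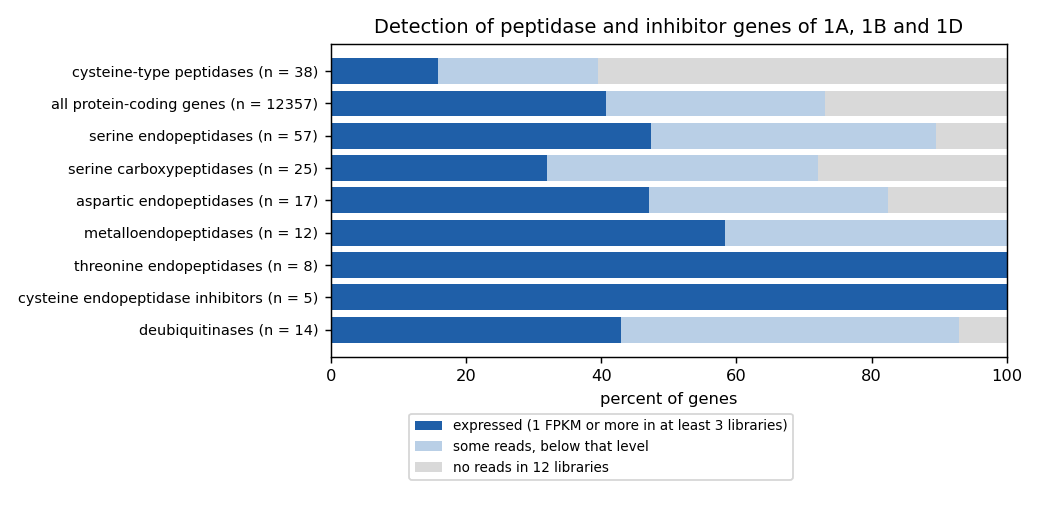
Percent of genes on 1A, 1B and 1D that were expressed (dark blue), had some reads below that level (light blue) or had no reads in 12 libraries (grey), for each class named at the left with its number of genes. The 38 cysteine-type peptidases have the widest grey bar of the classes shown, 60.5%, against 27% for all protein-coding genes.

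The 6 expressed members were TraesCS1D02G083200, TraesCS1D02G130000, TraesCS1A02G325400, TraesCS1D02G327000, TraesCS1B02G338500 and TraesCS1D02G026500. Their mean levels over the 12 libraries were low and close together, from 1.27 to 2.46 FPKM. The median of the 5037 tested protein-coding genes was 3.73 FPKM, and the 6 members stood between the 16.8th and 37.3rd percentile of those genes. Together they held 87.1% to 97.2% of the summed FPKM of the family in each library. Each reached 1 FPKM in 8 to 11 of the 12 libraries, in libraries of both times, so none passed the filter through 1 group alone.

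**Figure D2:**
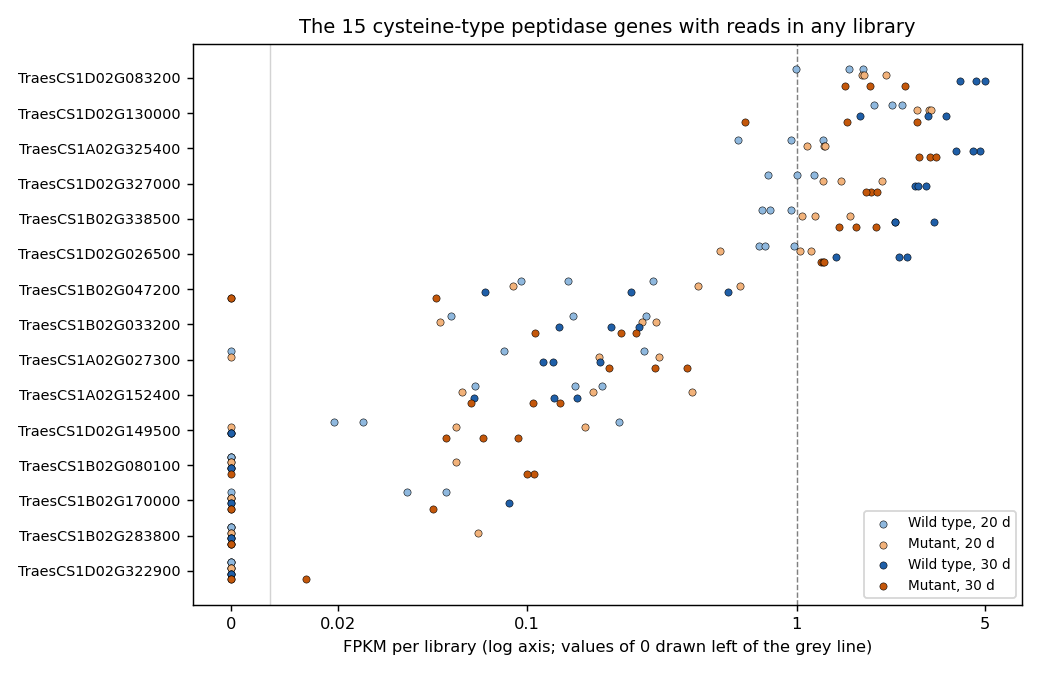
FPKM in each library (log axis, with values of 0 drawn left of the grey line) of the 15 members with reads in any library, in order of mean level, with 3 points per group. The 6 genes at the top lie around or above 1 FPKM (dashed line), and the 9 others stay below 0.617 FPKM in all libraries.

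The main result over time was a rise of the expressed members from 20 to 30 days. In wild type 5 of 6 rose (31.8% of all 5723 tested genes were called higher) and 0 fell (31.9% called lower), by edgeR's quasi-likelihood test with Benjamini-Hochberg adjustment and TMM scaling, which sets the bulk of genes near 0. In the mutant 4 of 6 rose (29.9% of all genes) and 0 fell (27.9%). With library totals alone as the scaling, the wild-type count remained 5 higher (39.6% of all genes), but the mutant count was 1 higher (13.5%) and 0 lower (47.3%), when the median of all genes in the mutant stood at -0.46. The only mutant call that held under both scalings was therefore that of TraesCS1A02G325400. With library totals alone TraesCS1B02G338500, TraesCS1D02G026500 and TraesCS1D02G327000 stayed above 0 in the mutant (0.41, 0.48 and 0.25) but were not called. The members' median log2 fold change was 1.35 in wild type and 0.88 in the mutant, with medians over all genes of -0.01 and 0.08. Those shares of all genes are large, and 6 genes are few, so the counts describe these genes and do not set the family apart.

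Of the vacuole and endoplasmic reticulum genes there is 1 on each chromosome, and all 3 were expressed. They are TraesCS1A02G325400 (1A, 516369536 to 516373444, plus strand), TraesCS1B02G338500 (1B, 566601144 to 566605225, plus strand) and TraesCS1D02G327000 (1D, 419462373 to 419466203, plus strand), with coordinates as in the table and the build not given. Their gene spans of 3909, 4082 and 3831 bases and the transcript lengths behind their FPKM of 1997, 2170 and 2167 bases are close. The table does not state whether they are copies of a single ancestral gene, and if they are near-identical the counting may have split reads between them.

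TraesCS1A02G325400 stood at 0.605, 1.25 and 0.955 FPKM in wild type at 20 days and at 4.77, 4.52 and 3.91 FPKM at 30 days (replicates 1 to 3). In the mutant its levels were 1.27, 1.28 and 1.10 FPKM at 20 days and 2.85, 3.13 and 3.28 FPKM at 30 days. In FPKM every 30-day library was above every 20-day library. The 2 cultivars overlapped at 20 days but not at 30 days, where wild type was higher, as for 54.8% of all tested genes. Scaled by TMM, the 30-day log2 fold change between cultivars was -0.04 (edgeR adjusted p = 0.921). With TMM factors the rise was 3.98-fold in wild type (log2 fold change 1.99, SE 0.21, edgeR adjusted p = 2.84e-06) and 3.70-fold in the mutant (1.89, SE 0.21, adjusted p = 6.68e-06). It was the largest rise of the 6 members in both cultivars, and it stayed called under all alternatives run and without any single library, at 2.23 and 1.34 on the log2 scale with library totals alone.

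TraesCS1B02G338500 stood at 0.742, 0.950 and 0.800 FPKM in wild type at 20 days and at 3.24, 2.31 and 2.33 FPKM at 30 days. The mutant libraries held 1.05, 1.58 and 1.17 FPKM at 20 days and 1.67, 1.44 and 1.96 FPKM at 30 days. In FPKM wild type had both the lowest and the highest group, while the mutant's times overlapped. The cultivars did not overlap at either time. The same held for 38.4% of all tested genes at 20 days (mutant higher) and 54.8% at 30 days (mutant lower). Scaled by TMM, the cultivar difference was called at neither time (0.29 and -0.16, edgeR adjusted p = 0.470 and 0.624). The log2 fold change over time was 1.41 in wild type (SE 0.21, edgeR adjusted p = 6.24e-05) and 0.96 in the mutant (SE 0.21, adjusted p = 0.00158). The mutant call ended with library totals alone as the scaling (0.41, adjusted p = 0.124).

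TraesCS1D02G327000 stood at 1.00, 0.785 and 1.16 FPKM in wild type at 20 days and at 3.02, 2.76 and 2.82 FPKM at 30 days. The mutant libraries held 1.46, 2.07 and 1.25 FPKM at 20 days and 1.89, 1.81 and 1.99 FPKM at 30 days. As for the 1B gene, wild type in FPKM went from below the mutant at 20 days to above it at 30 days. The cultivars did not overlap at either time, as for 38.4% of all tested genes at 20 days and 54.8% at 30 days. Scaled by TMM, the cultivar difference was called at neither time (0.37 and -0.13, edgeR adjusted p = 0.295 and 0.680). The log2 fold change over time was 1.29 in wild type (SE 0.19, edgeR adjusted p = 5.48e-05) and 0.80 in the mutant (SE 0.19, adjusted p = 0.00268), and the latter call ended with library totals alone (0.25, adjusted p = 0.326).

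The makeup of the 3 genes shifted toward the 1A gene with time, a pattern chosen for mention after its values were seen. TraesCS1A02G325400 held 33.5% ± 8.09 (SD, n = 3) of their summed FPKM in 20-day wild type and 44.5% ± 2.28 in 30-day wild type, and 30.2% ± 3.93 and 46.3% ± 2.44 in the mutant. Shares within a library do not depend on how libraries are scaled. The 1A gene was above the 1D gene in 6 of 6 libraries at 30 days and in 1 of 6 at 20 days, the exception being wild-type replicate 2, with a ratio of 1.59. Ratios at 30 days ran from 1.39 to 1.73 over both cultivars, and the other 20-day libraries lay between 0.604 and 0.879. The shift was not tested.

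**Figure D3:**
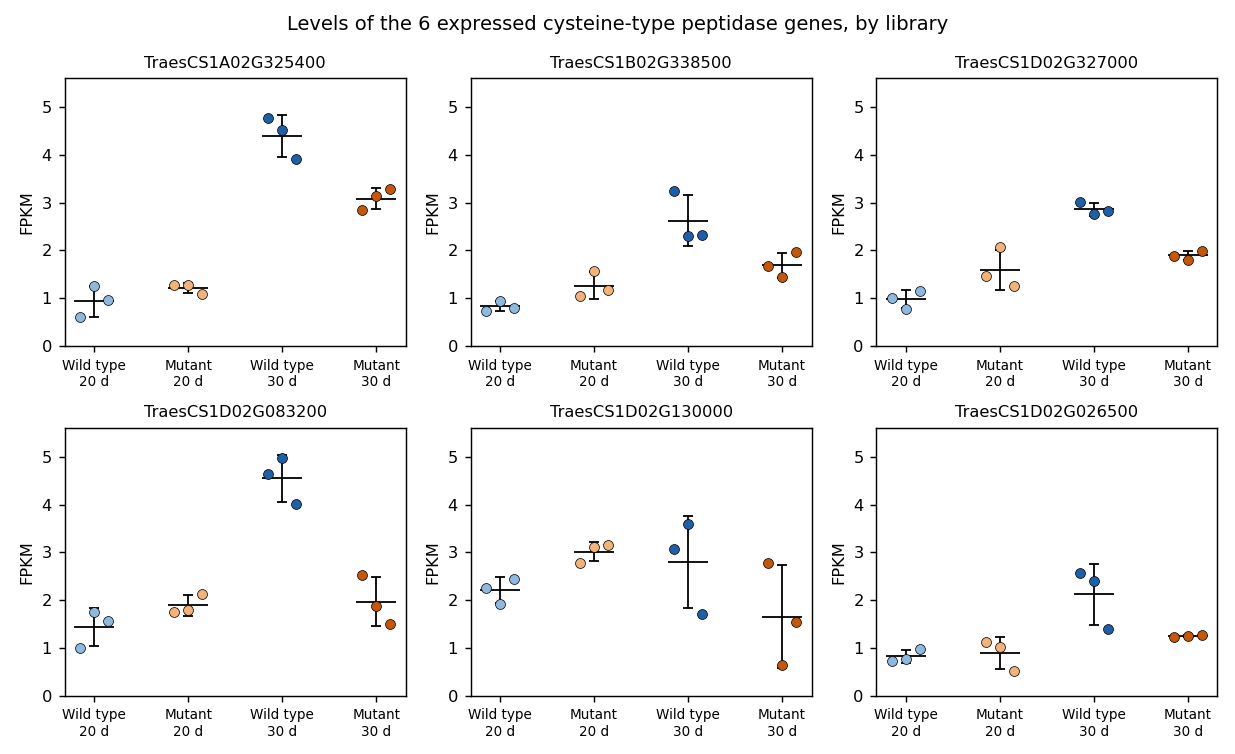
FPKM of the 6 expressed members in each library, by group, with points for the 3 libraries and bars for the mean and SD. The 3 genes of the upper row are those assigned to vacuole and endoplasmic reticulum, and in 5 of the 6 panels (all but TraesCS1D02G130000) wild type at 30 days has the highest mean and wild type at 20 days the lowest. FPKM is scaled by library totals alone, and all tested genes shift on that scale. Their median log2 fold change was 0.32 at 20 days and -0.51 at 30 days (mutant against wild type), and 0.23 over time in wild type.

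The other expressed members all lie on 1D and have no entry beyond proteolysis. TraesCS1D02G083200 (1D, 66197715 to 66199713, minus strand) stood at 0.993, 1.76 and 1.57 FPKM in wild type at 20 days and at 4.64, 4.98 and 4.02 FPKM at 30 days. The mutant libraries held 1.75, 1.78 and 2.14 FPKM at 20 days and 2.52, 1.87 and 1.51 FPKM at 30 days. In FPKM wild type thus rose clear of all other libraries, while the mutant's times overlapped. At 30 days 54.8% of all tested genes likewise had every mutant library below every wild-type library. The log2 fold change over time was 1.42 in wild type (SE 0.26, edgeR adjusted p = 0.000318) and 0.58 in the mutant (SE 0.26, adjusted p = 0.0705, not called). Without mutant replicate 3 at 20 days the mutant's value was 0.73 and called (adjusted p = 0.0464).

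TraesCS1D02G026500 (1D, 10740324 to 10741901, plus strand) stood at 0.728, 0.764 and 0.980 FPKM in wild type at 20 days and at 2.57, 2.40 and 1.4 FPKM at 30 days. The mutant libraries held 1.13, 1.03 and 0.522 FPKM at 20 days and 1.23, 1.25 and 1.27 FPKM at 30 days. Replicate 3 was the lowest library of both wild type at 30 days and the mutant at 20 days. The rise was called in wild type (log2 fold change 1.12, SE 0.31, edgeR adjusted p = 0.00644) and in the mutant (1.04, SE 0.31, adjusted p = 0.0121). The mutant call ended with library totals alone (0.48, adjusted p = 0.213). Without mutant replicate 3 at 20 days the mutant's value was 0.80 (adjusted p = 0.0492).

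TraesCS1D02G130000 (1D, 143334638 to 143335412, plus strand) was the exception, with no call in any comparison by edgeR. It stood at 2.26, 1.93 and 2.45 FPKM in wild type at 20 days and at 3.07, 3.59 and 1.72 FPKM at 30 days. The mutant libraries held 2.79, 3.11 and 3.14 FPKM at 20 days and 2.78, 0.642 and 1.54 FPKM at 30 days. Its 30-day libraries spread widely in both cultivars, and in the mutant all lay below the 20-day libraries in FPKM, as did those of 50.1% of all tested genes, although replicate 1 held 85 counts at both times. The log2 fold change over time was 0.10 in wild type (SE 0.44, 95% interval -0.86 to 1.07) and -0.33 in the mutant (SE 0.45, -1.30 to 0.64), so a doubling in wild type lies within the interval. Limma on log2(FPKM + 1) called it lower in the mutant at 30 than at 20 days (-0.68, adjusted p = 0.0394), when it called 48.5% of all genes lower.

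Between cultivars, 0 members were called at 20 days by edgeR (2.29% of all tested genes were), 0 had an unadjusted p under 0.05, DESeq2 called 0 (9.14% of all genes) and limma on log2(FPKM + 1) called 1 higher (27.1%). The values ran from -0.21 for TraesCS1D02G026500 to 0.37 for TraesCS1D02G327000, with a median of 0.12. For TraesCS1D02G327000 the 95% interval was -0.05 to 0.78, and for TraesCS1B02G338500 it was -0.17 to 0.75 around 0.29. In FPKM, 3 of 6 members had every mutant library above every wild-type library at 20 days (TraesCS1B02G338500, TraesCS1D02G327000 and TraesCS1D02G130000), as had 38.4% of all tested genes. With library totals alone TraesCS1D02G327000 was called higher (0.69, adjusted p = 0.0316), when 24.3% of all genes were and the median of all genes stood at 0.32.

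At 30 days 0 members were called between cultivars by edgeR (22.9% of all tested genes were), 1 had an unadjusted p under 0.05, DESeq2 called 1 lower (11.9% of all genes) and limma on log2(FPKM + 1) called 5 lower (46.1%). All 6 values were below 0, from -0.74 to -0.04 with a median of -0.23, against -0.03 for all genes. The lowest was that of TraesCS1D02G083200, with means of 1.97 ± 0.511 FPKM for the mutant and 4.55 ± 0.488 for wild type (SD, n = 3). Its log2 fold change was -0.74 (SE 0.25, 95% interval -1.29 to -0.19). Its adjusted p of 0.0518 lay just past the threshold with edgeR and was 0.0149 with DESeq2, and over all alternatives other than left-out libraries it ran from 0.000534 to 0.0835. The 3 vacuole and endoplasmic reticulum genes gave -0.04 (1A, interval -0.48 to 0.40), -0.16 (1B, -0.61 to 0.28) and -0.13 (1D, -0.53 to 0.28).

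The 30-day result depends on the scaling. In FPKM, 5 of 6 members, all but TraesCS1D02G130000, had every mutant library below every wild-type library at 30 days, and so had 54.8% of all tested genes. With library totals alone edgeR called 3 of 6 lower (45.3% of all genes), namely TraesCS1B02G338500, TraesCS1D02G327000 and TraesCS1D02G083200, at -0.63, -0.60 and -1.21, when the median of all genes stood at -0.51. The value of TraesCS1D02G083200 was the lowest of the 6 under both scalings, which shift the genes of a comparison almost alike.

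The change of the cultivar difference from 20 to 30 days was below 0 for all 6 members with TMM factors, from -0.84 to -0.08 with a median of -0.45, against -0.02 for all genes. By edgeR 0 were called (24% of all genes were), 1 had an unadjusted p under 0.05, DESeq2 called 0 (27.6%) and limma on log2(FPKM + 1) called 4 lower (54.9%). The largest was again TraesCS1D02G083200 (-0.84, SE 0.36, edgeR adjusted p = 0.115), so the wider rise in wild type than in the mutant did not pass the test of the difference itself. With library totals alone 4 of 6 were called lower (52.3% of all genes), with the median of all genes at -0.80. The comparisons of the 2 cultivars and of the 2 times share libraries, so their values are given side by side and not as separate support.

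**Figure D4:**
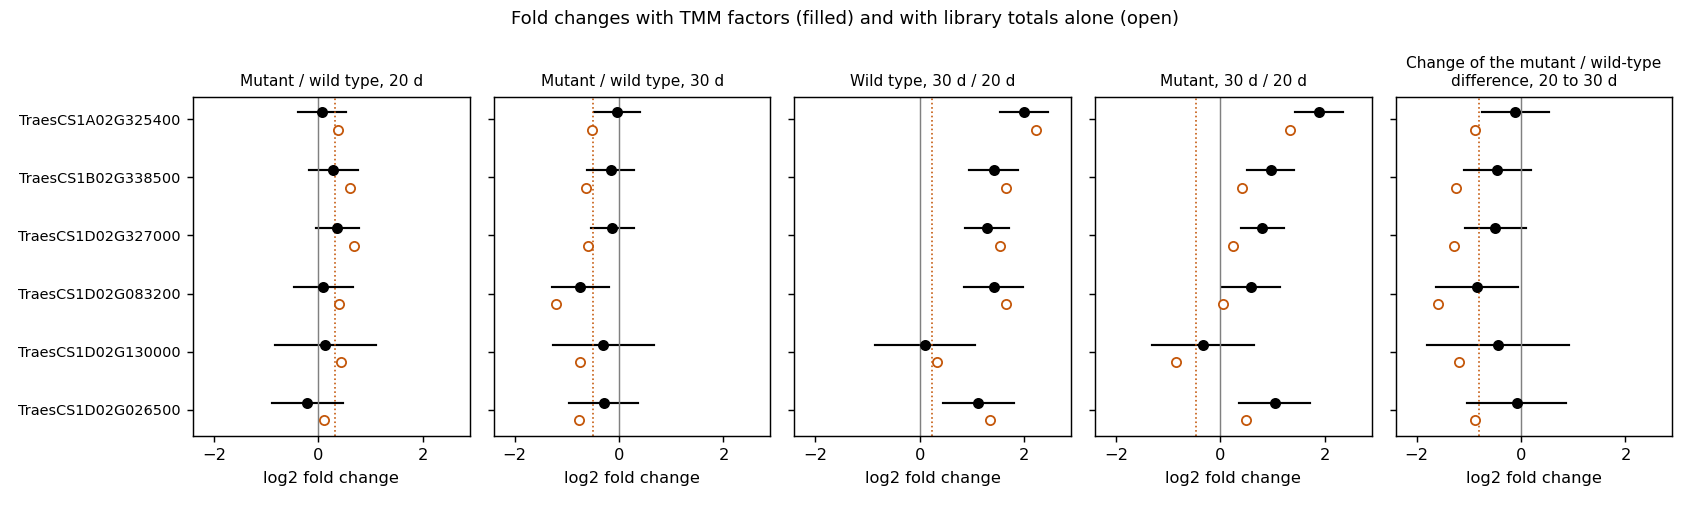
Log2 fold changes of the 6 expressed members in each comparison, with TMM factors (filled points, with 95% intervals) and with library totals alone (open points). The dotted line is the median of all tested genes with library totals alone, and the solid line is 0. Both scalings put 5 of 6 members well above 0 over time in wild type. The open points shift with the dotted line in all panels.

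The 9 members with reads below the level set for testing had mean levels of 0.00126 to 0.215 FPKM. In a fit without that filter, chosen as an alternative, 2 of the 9 gave a call, and both are named after their values were seen. TraesCS1B02G047200 (1B, 26967665 to 26971712, minus strand) had counts of 79, 54 and 10 in the mutant at 20 days and of 0, 0 and 6 at 30 days, and was called lower over time in the mutant (edgeR adjusted p = 0.0176, with 15.6% of all genes called lower in that fit). In wild type its counts were 18, 11 and 36 at 20 days and 71, 10 and 32 at 30 days, with no call over time. Between cultivars at 30 days it was not called (log2 fold change -3.63, edgeR adjusted p = 0.0592). TraesCS1D02G149500 (1D, 205763289 to 205764441, minus strand) had counts of 17, 2 and 2 in wild type at 20 days and 0 in all 3 libraries at 30 days (edgeR adjusted p = 0.0325, with 18.2% of all genes called lower), and 17 of its 20-day counts lay in 1 library. Its mutant counts were 0, 14 and 4 at 20 days and 8, 4 and 6 at 30 days.

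TraesCS1B02G033200 and TraesCS1A02G152400 had reads in all 12 libraries, at no more than 0.300 and 0.408 FPKM. TraesCS1A02G027300 had reads in 10 libraries, at up to 0.394 FPKM. Its 30-day counts were 20, 36 and 28 in the mutant and 12, 19 and 12 in wild type. That difference was not called in the fit without the filter (log2 fold change 1.52, edgeR adjusted p = 0.501). The genes named here were also chosen after their values were seen. The remaining 4 had reads in 1 to 4 libraries. Among them TraesCS1B02G080100 had reads in mutant libraries alone, with a count of 4 in 1 library at 20 days and of 8 and 7 in 2 libraries at 30 days. None of these 7 genes gave a call in edgeR's fit without the filter, and 1 had an unadjusted p under 0.05, TraesCS1B02G080100 at 30 days between cultivars (edgeR adjusted p = 0.207).

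The summed level of the family, most of which comes from the 6 expressed members, was higher at 30 than at 20 days in wild type, with no overlap between libraries, whereas the mutant's times overlapped (10.3 to 11.7 FPKM and 11.01 to 13.7 FPKM). In wild type it was 7.93 ± 0.789 FPKM (SD, n = 3) at the earlier time and 20.1 ± 2.79 at the later, against 10.9 ± 0.672 and 12.3 ± 1.36 in the mutant. FPKM is scaled by library totals alone. On that scale the median log2 fold change over time of all tested genes was 0.23 in wild type and -0.46 in the mutant. The sums therefore include shifts shared by the bulk of genes. With TMM factors 0 members were called for the change of the cultivar difference (24% of all genes were). Storage protein transcripts, taken as the 43 genes with nutrient reservoir activity, went from 53227 ± 667 to 6097 ± 56.1 summed FPKM in wild type and from 34447 ± 11883 to 36657 ± 4768 in the mutant. Of 18 tested nutrient reservoir genes 18 fell over time in wild type (31.9% of all tested genes did). In the mutant 6 rose and 1 fell (29.9% and 27.9% of all genes). With library totals alone 3 were higher and 4 lower in the mutant (13.5% and 47.3%). TraesCS1A02G325400 rose in both cultivars, and the change of the cultivar difference for this gene was -0.11 with TMM factors (95% interval -0.74 to 0.53). With library totals alone it was -0.88 (edgeR adjusted p = 0.0257). On that scale the median of all genes stood at -0.80 and 52.3% of them were called lower. Whether storage transcript content has a part in the peptidase levels was not tested.

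The summed FPKM of inhibitor transcripts was above that of the members in each group. The members with the papain-like cathepsin L entry were silent, and whether the inhibitors act on the expressed members was not tested. The 5 cysteine endopeptidase inhibitors summed to 89.0 ± 4.65 FPKM in 20-day wild type and 86.3 ± 2.27 in 30-day wild type, and to 126 ± 33.0 and 83.7 ± 11 in the mutant. Over time 2 of the 5 rose and 2 fell in wild type, with a median log2 fold change of 0.01. In the mutant 2 rose and 1 fell (0 and 3 with library totals alone). Of all tested genes 31.8% rose and 31.9% fell in wild type. The mutant shares were 29.9% and 27.9% (13.5% and 47.3% with library totals alone). FPKM is per length, so these sums can be set beside those of the peptidases, but they cover 3 chromosomes of the wheat genome.

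**Figure D5:**
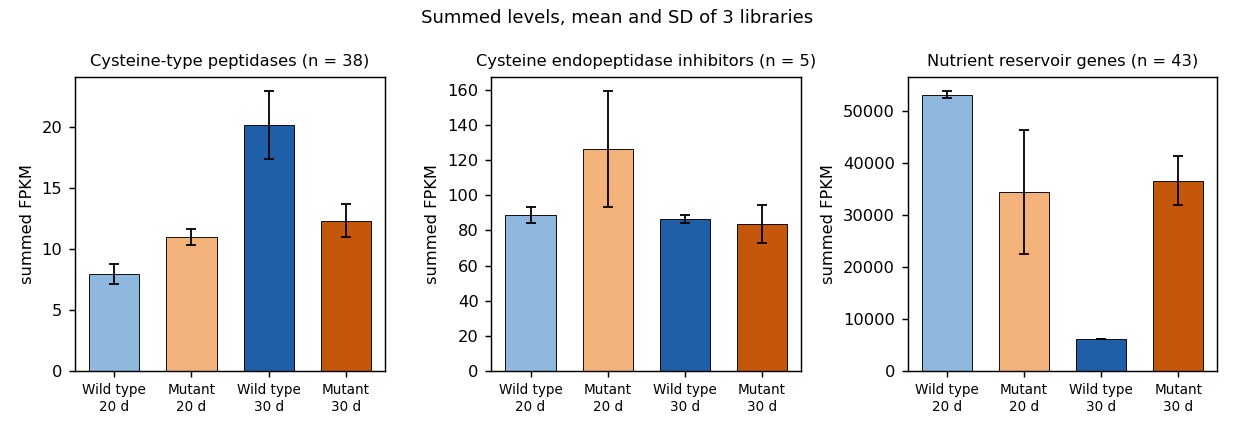
Summed FPKM of the 38 cysteine-type peptidases, the 5 cysteine endopeptidase inhibitors and the 43 nutrient reservoir genes, as mean (bar) and SD of 3 libraries per group. The peptidase sum is highest in wild type at 30 days (20.1), the group in which the nutrient reservoir sum is lowest (6097). FPKM is scaled by library totals alone. On that scale the median log2 fold change over time of all tested genes was 0.23 in wild type and -0.46 in the mutant.

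Among other genes of proteolysis, over time in wild type 5 of 8 tested aspartic endopeptidases rose and 2 fell (median log2 fold change 0.44), 10 of 27 serine endopeptidases rose and 12 fell (0.09), and 4 of 8 serine carboxypeptidases rose and 4 fell (-1.10). Of 7 metalloendopeptidases 2 rose and 2 fell (-0.10). In the mutant the counts were 5 up and 2 down for aspartic endopeptidases (0.97), 8 up and 10 down for serine endopeptidases (-0.05), 2 up and 2 down for serine carboxypeptidases (-0.11) and 1 up and 1 down for metalloendopeptidases (0.00). With library totals alone the medians of the aspartic endopeptidases remained above 0, at 0.68 and 0.43, and those of the serine carboxypeptidases below 0, at -0.86 and -0.62. With that scaling the median of the metalloendopeptidases turned to 0.14 in wild type, and in the mutant 0 were higher and 5 lower (-0.54). In the mutant 3 serine endopeptidases were then higher and 15 lower (-0.59). Of all tested genes 31.8% rose and 31.9% fell in wild type with TMM factors, and 29.9% and 27.9% in the mutant. With library totals alone 13.5% were higher and 47.3% lower in the mutant, with a median of -0.46. No class was tested against these shares.

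The genes of self-digestion and cell death were few. All 3 tested autophagy genes, which serve the breakdown of cell contents in the vacuole, rose in the mutant (median log2 fold change 0.47, turning to -0.06 with library totals alone) and 0 of 3 were called in wild type (-0.13, 1 at an unadjusted p under 0.05), where library totals alone gave 1 higher and a median of 0.11. The single gene annotated to programmed cell death fell over time in wild type (-0.69) and in the mutant (-0.41). Of 13 tested vacuole genes, a list that holds the 3 members described above, 5 rose and 6 fell in wild type (median -0.26) and 4 rose and 7 fell in the mutant (-0.24), which became 5 and 4, and 1 and 8, with library totals alone.

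Markers of other grain tissues moved over the same interval. The counts of markers below stand beside 31.8% of all tested genes that rose and 31.9% that fell in wild type. In the mutant these shares were 29.9% and 27.9% (13.5% and 47.3% with library totals alone). The 8 embryo markers summed to 2573 to 2751 FPKM in wild type at 20 days and 3183 to 3385 at 30 days, and to 1375 to 1898 and 2743 to 4549 in the mutant. Of these 8 genes 6 rose and 2 fell in wild type (median log2 fold change 5.06) and 8 rose in the mutant (4.43, and 5 rose with library totals alone). The 2 that fell were Globulin 1 genes, which held most of the 20-day sum. Their wild-type means were 1113 and 1482 FPKM at 20 days and 164 and 258 at 30 days. In the mutant they were 621 and 878 FPKM at 20 days and 773 and 869 at 30 days. The sum of the green pericarp markers went from 8.99 to 11.5 FPKM at 20 days to 0.0480 to 0.494 at 30 days in wild type, and from 4.47 to 8.69 to 0.889 to 2.50 in the mutant. The endosperm markers summed to 60491 to 61561 FPKM in wild type at 20 days and 7317 to 7437 at 30 days, against 28281 to 53844 and 36435 to 44861 in the mutant. Gliadins and purothionin make up most of these sums. Of 24 tested endosperm markers 19 fell in wild type and 5 rose, the starch synthase genes. In the mutant 8 rose and 2 fell (3 higher and 5 lower with library totals alone). In whole grain a change in the share of a tissue and a change in RNA per cell cannot be told apart, and the part of these tissues in the peptidase rise was not tested.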

How the data were processed

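Immature wheat grain was profiled in 12 libraries, 3 per group, with groups taken from the labels. Per the submitters' processing notes, cutadapt 1.9 and FastQC were used; which aligner, counter and genome build made the table was not given in the sources used here. Per the file headers, the deposited table holds whole-number counts and, beside them, FPKM. The deposited FPKM values hold 0.0001 where the count is 0, read here as 0. Of 25270 lines the last was incomplete and left out, and 0 identifiers matched the reference table.

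Library totals came from counts and FPKM of 43 non-coding genes that had 100 or more counts throughout, and were used as library sizes. The 5723 genes with FPKM of at least 1 in 3 or more libraries were tested with edgeR 4.0.16 (R 4.3.3), quasi-likelihood, TMM factors, 1 fit of all 12 libraries with group means, called at a Benjamini-Hochberg adjusted p under 0.05. An SE is the absolute log2 fold change over the square root of F, and 95% intervals use the fit's degrees of freedom. Group values are mean ± SD. The steps were tested on simulated data. Named genes were all 6 tested members, as the rule (highest levels, largest called changes) took each, and further members where stated. The members, lists and tests were chosen with earlier results of these data known. Alternatives were DESeq2 1.42.0, limma 3.58.1 on log2(FPKM + 1) and log2(FPKM + 0.1), other scalings and filters, a fit of the compared groups alone, a block for replicate number, and leaving out each library. Dividing counts by 4 was added after seeing the data.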

Additional observations from a re-analysis of the deposited data

How the results depend on the processing

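The 9 called rises over time gave 198 values over the alternative fits, with each rise counted once per fit. All 198 kept their direction and 189 kept the call. The 9 lost calls were those of 3 genes in the mutant with library totals alone or limma. The number of members called at 20 days was 0 with edgeR, and 1 higher with library totals alone (24.3% of all genes called higher), limma on log2(FPKM + 1) (27.1%) and limma on log2(FPKM + 0.1) (22.9%). At 30 days it was 0, against 3 lower with library totals alone (45.3% of all genes called lower), 1 with median-of-ratios factors (10.1%), 1 with DESeq2 (11.9%), 5 and 3 with limma at pseudocounts 1 and 0.1 (46.1% and 45.7%), 1 in a fit of the compared groups (10.2%) and 1 with counts divided by 4 (9.72%). Without single libraries it was 0 to 1 (6.11% to 10.6%). The 1 call was TraesCS1D02G083200, gained without mutant replicate 3, wild-type replicate 1 or wild-type replicate 2 at 20 days or mutant replicate 1 at 30 days. Over time in the mutant it was 4, against 1 with library totals alone (13.5% higher). Each limma fit called 2, of which 1 was higher (14.4% and 14.2% of all genes) and 1 lower (48.5% and 48.2%). Without single libraries 4 to 5 were called (25.3% to 30.3% higher). In wild type it stayed at 5 without any library (29% to 32.3% higher). For the change of the difference it was 0, against 4 lower with library totals alone (52.3%) and with each limma fit (54.9% and 52.7%).

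Values that changed sign were called in neither fit. TraesCS1D02G026500 at 20 days turned to 0.11 with library totals alone and to 0.041 and 0.053 with limma. Without single libraries it ran from -0.42 to 0.021, TraesCS1D02G083200 from -0.092 to 0.25 and TraesCS1A02G325400 from -0.15 to 0.32. At 30 days TraesCS1A02G325400 ran from -0.14 to 0.023, TraesCS1B02G338500 from -0.31 to 0.018 and TraesCS1D02G130000 from -0.88 to 0.052. TraesCS1D02G130000 ran from -0.13 to 0.37 over time in wild type. For the change of the difference TraesCS1A02G325400 ran from -0.38 to 0.092 and TraesCS1D02G026500 from -0.32 to 0.13. The cause was not tested.

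With the replicate number as a block, members called were 0 and 0 between cultivars (0.367% and 21% of all genes), 5 and 4 over time (62.5% and 56.5%) and 0 for the change of the difference (22.6%), where TraesCS1D02G026500 turned to 0.0053. Only 2 of 18 same-numbered pairs correlated above 0.1 (range -0.09 to 0.24), so the numbers were not taken to pair libraries. Low levels limit the 9 members below 1 FPKM, where a change of a few counts is a large fold change.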
